A study of Homo sapiens with 36 samples.

Results

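The transcripts of 9 genes of the calcineurin and NFAT pathway were followed in Caco-2 and HT-29, established lines from human colorectal tumours. These were NFATC1, NFATC2, NFATC3, NFATC4, NFAT5, PPP3CA, PPP3CB, PPP3R1 and RCAN1. They were taken by symbol from the table of mRNA counts, and all 9 of 9 were among its 60591 genes. The 18 mRNA libraries formed 6 groups of 3 biological replicates. Each line was kept with control medium, with 300 µM cobalt chloride (CoCl2) or with 5 µM of an oxyquinoline derivative (OD) for 24 h. Control and OD medium carried 0.5 µl of dimethyl sulfoxide (DMSO) per ml. The labels have the CoCl2 stock made in water, whereas the study's methods add DMSO to the CoCl2 medium at another concentration, so whether CoCl2 and control media differed in solvent could not be decided. Caco-2 cells had been kept under differentiating conditions for 21 days before treatment and HT-29 cells had not, so that line and culture state cannot be told apart. Both agents are used to stabilise hypoxia-inducible factor (HIF) by blocking its prolyl hydroxylases, and the comparisons ask what such chemical hypoxia does to these transcripts.

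Calcineurin is a phosphatase that is switched on by calcium and calmodulin. It consists of a catalytic A subunit (PPP3CA, PPP3CB or PPP3CC) and a regulatory B subunit that binds calcium (PPP3R1 in most tissues). It removes phosphates from the transcription factors NFATC1 to NFATC4, which then enter the nucleus. NFAT5 shares their DNA-binding domain but is not a calcineurin substrate of this kind and is best known for the response to hypertonic stress. RCAN1 binds calcineurin and can inhibit it, and a short form of RCAN1 made from an internal start site is a known NFAT target. RNA alone was measured here, so neither phosphatase activity nor the location of NFAT proteins was seen.

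Gene totals of the libraries ranged from 12925719 to 22332639 counts. All 7 epithelial markers were present in every group. The 8 enterocyte markers summed to between 3740 and 5310 CPM (counts scaled to a common library total) in Caco-2 libraries and to between 144 and 212 in HT-29 libraries, where APOA4 was at 0 in the control and OD groups and LCT in the OD group. The enterocyte sums moved with treatment. In Caco-2 controls they were 3740 to 4140 CPM, with CoCl2 4690 to 5310 and with OD 4120 to 4510, and APOA1 held most of each sum. Marker by marker, at a false discovery rate under 0.05, with CoCl2 in Caco-2 2 of the 8 rose and 5 fell (median log2 fold change -0.42). Of all genes tested there, 31.6% rose and 33.1% fell. With OD 4 rose and 1 fell (median 0.14), beside 25.7% and 24.7% of all genes. In HT-29 these sums were 178 to 186 CPM in controls, 201 to 212 with CoCl2 and 144 with OD. The epithelial sums in Caco-2 were 4650 to 4810 CPM in controls, 7200 to 7980 with CoCl2 and 6150 to 6550 with OD. Those in HT-29 were 5120 to 5150, 6590 to 6950 and 6470 to 7070 CPM. With CoCl2, 6 of the 7 rose and 1 fell in Caco-2, beside 31.6% and 33.1% of all genes. In HT-29 5 rose and 2 fell, beside 40.7% and 42.2% of all genes. There mean KRT20 went from 321 to 755 CPM and mean VIL1 from 205 to 33.6. The sums of other cell types moved as well, those of 8 leukocyte markers in Caco-2 (13.6 to 14.9 CPM in controls, at least 11.4 with CoCl2 and 8.68 to 9.55 with OD) and of 7 fibroblast and endothelial markers (32.9 to 39.8, 19.0 to 21.8 and 22.4 to 27.7 CPM in the same order). In HT-29 the leukocyte sums were 3.81 to 4.54, 1.42 to 2.35 and 3.52 to 4.10 CPM and the fibroblast and endothelial sums 2.78 to 3.81, 2.61 to 3.39 and 6.21 to 7.34 CPM, with MS4A1 and COL1A2 at 0 in all 3 groups. The part of these markers in the results was not tested, and in bulk RNA fewer cells of a type and less RNA per cell cannot be told apart. Scaling matters for every direction given below. With plain library size in place of the trimmed mean of M values (TMM), the all-gene median log2 fold change shifted by -0.32 (CoCl2) and -0.15 (OD) within Caco-2 and by -0.63 (CoCl2) and -0.14 (OD) within HT-29. Changes are therefore relative to TMM scaling, and a direction that turned under library size is named beside its value. The marker counts and sums above were not repeated with library size, so their directions hold for TMM scaling only.

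Stretches of DNA around selected start sites of RCAN1, NFATC3 and NFATC4 are shown first, because 1 gene total here can merge several starts. They are not all the windows of members that responded, as PPP3R1 and further starts of RCAN1 and NFATC4 are left out. RefSeq windows (GRCh38.p14) of 300 bases, with 250 bases before and 50 after a start, were at hand for 6 of the 9 genes, 15 windows in all. Letters in capitals are the HIF core motif (ACGTG or GCGTG) or the NFAT core motif (GGAAA), each searched on both strands. A match on the other strand is printed as its reverse complement, and CACGTG counts as 2 overlapping HIF core matches. The first and the fourth of 6 RCAN1 starts lie at the head of the gene and inside it (minus strand), and the NFATC3 and first NFATC4 windows are on the plus strand.
RCAN1 start 1, chr21:34615064-34615363: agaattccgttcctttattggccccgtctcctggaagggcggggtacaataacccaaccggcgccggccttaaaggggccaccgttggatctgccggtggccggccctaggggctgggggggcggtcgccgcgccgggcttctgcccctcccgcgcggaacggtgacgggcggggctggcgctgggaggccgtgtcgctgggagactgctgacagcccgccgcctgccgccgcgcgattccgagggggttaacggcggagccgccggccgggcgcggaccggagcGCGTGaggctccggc
RCAN1 start 4, chr21:34526773-34527072: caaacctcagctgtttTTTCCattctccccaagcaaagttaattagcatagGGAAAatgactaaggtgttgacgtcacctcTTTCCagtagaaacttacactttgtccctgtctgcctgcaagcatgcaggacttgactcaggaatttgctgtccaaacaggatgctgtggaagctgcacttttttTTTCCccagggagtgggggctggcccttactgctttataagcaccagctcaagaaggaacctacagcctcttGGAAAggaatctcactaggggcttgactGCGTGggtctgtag
NFATC3 start 1, chr16:68085120-68085419: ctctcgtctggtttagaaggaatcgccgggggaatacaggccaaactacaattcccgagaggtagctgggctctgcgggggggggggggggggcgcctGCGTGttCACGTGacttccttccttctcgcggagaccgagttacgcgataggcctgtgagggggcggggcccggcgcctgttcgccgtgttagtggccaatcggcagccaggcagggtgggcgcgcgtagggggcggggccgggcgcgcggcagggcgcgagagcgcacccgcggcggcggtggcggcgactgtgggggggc
NFATC4 start 1, chr14:24366661-24366960: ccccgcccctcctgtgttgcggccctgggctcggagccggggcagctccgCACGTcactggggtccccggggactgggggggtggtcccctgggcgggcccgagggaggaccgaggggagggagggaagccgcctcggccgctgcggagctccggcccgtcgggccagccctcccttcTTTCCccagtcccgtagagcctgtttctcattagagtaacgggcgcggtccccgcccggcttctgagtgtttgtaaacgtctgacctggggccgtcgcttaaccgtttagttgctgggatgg

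The internal RCAN1 window held 5 NFAT core matches, while each of the 3 windows at the head of RCAN1 held 0. Of 35116 promoter windows of this length, 61.2% held at least 1 such match and 0.74% held 5 or more. The limit of 5 is the count of the internal RCAN1 window, which held the most of the 15 searched. The 0.74% is therefore a description and no test of that window. The NFATC3 window held 3 HIF core matches, of which 2 formed CACGTG, and 0 NFAT core matches. HIF core letters were present in 48.4% and CACGTG in 7.26% of all windows. The first NFATC2 window held 3 NFAT core matches and the second 0, with 0 and 2 HIF core matches. The PPP3R1 window held 2 HIF core matches and 1 NFAT core match. Both NFATC1 windows held 1 HIF core match and 1 NFAT core match. Every NFATC4 window held 1 HIF core match. A match is a run of letters and not a bound site.

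**Figure D1:**
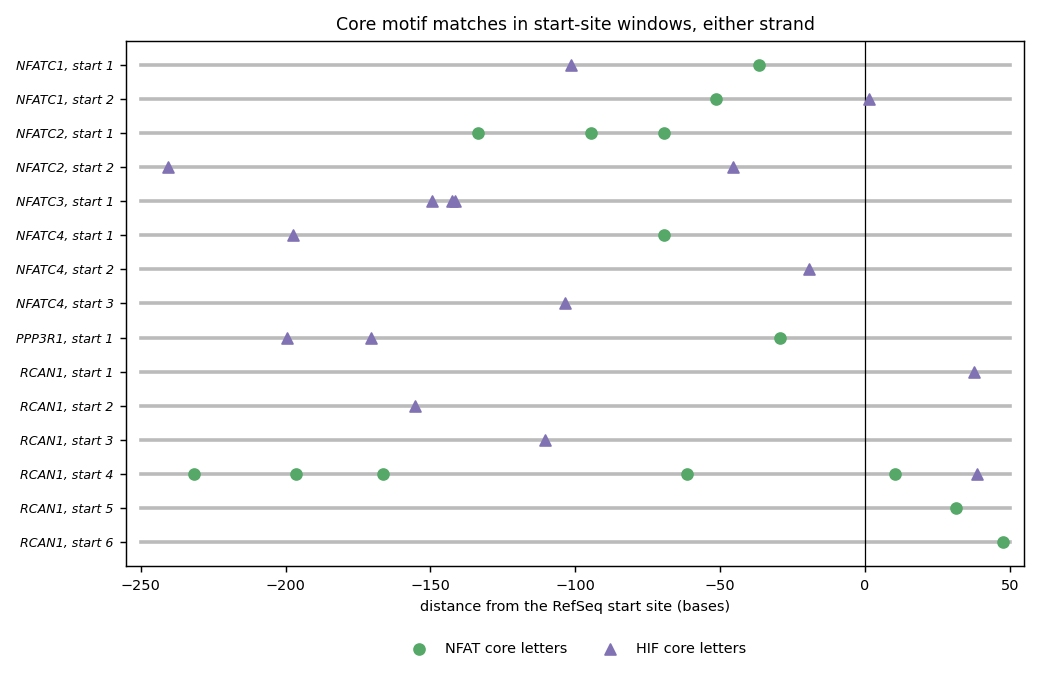
Matches to the NFAT core (circles) and HIF core (triangles) letters in 15 start-site windows of 6 genes, by distance from the RefSeq start in bases, both strands. The fourth RCAN1 start carries 5 NFAT core matches, and the 3 starts at the head of the gene carry 0.

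Levels of the 9 genes were first compared within untreated cells, as RPKM (reads per kilobase of exon, scaled to sequencing depth), since counts of genes of different length cannot be compared. In Caco-2 controls the order was NFATC2 with 9.52 ± 0.153 RPKM (SD, n = 3), NFAT5 with 8.53 ± 0.828, PPP3CA with 7.66 ± 0.310, PPP3CB with 7.54 ± 0.684 and PPP3R1 with 6.97 ± 0.243. Neighbours among these 5 overlapped between libraries. RCAN1 at 6.03 ± 0.234 RPKM and NFATC3 at 5.01 ± 0.0776 stood apart below them. NFATC1 (0.0776 ± 0.0128) and NFATC4 (0.0586 ± 0.0164) were barely detected and overlapped each other. In HT-29 controls PPP3CA led with 12.7 ± 0.952 RPKM (SD, n = 3), followed by PPP3R1 with 9.99 ± 0.394, PPP3CB with 8.08 ± 0.115, NFAT5 with 6.10 ± 0.253, NFATC3 with 5.38 ± 0.293 and RCAN1 with 2.48 ± 0.191, none of which overlapped the next. NFATC4 at 0.928 ± 0.0839 and NFATC2 at 0.799 ± 0.0814 overlapped, and NFATC1 was last with 0.0117 ± 0.00629. The place of NFAT5 depends on the length used for it, since the authors' deposited values put it at 11 RPKM in Caco-2 and 7.44 in HT-29 controls, above NFATC2 in the former.

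The untreated lines thus differed in the amounts of some NFAT factors. Of 17921 genes tested over all 18 libraries, 45.8% were called, meaning a false discovery rate (FDR) under 0.05 and an absolute log2 fold change over 1, and 4 of the 9 genes were called. The FDR alone was passed by 7 of 9, beside 79.1% of all genes. Both counts lay near the shares of all genes. NFATC2, known from T cells, gave 1162 to 1399 counts in Caco-2 and 96 to 153 in HT-29, a log2 difference of -3.58 (SE 0.09, edgeR FDR 3.68e-27) for HT-29 against Caco-2. NFATC4 went the other way, with 6 to 9 counts in Caco-2 and 107 to 196 in HT-29, a log2 difference of 3.99 (SE 0.27, FDR 2.96e-15). NFATC1 was lower in HT-29 by a fitted log2 difference of -2.66 (SE 0.57, FDR 8.31e-05). It summed to 33 counts in the Caco-2 controls and 6 in those of HT-29, and the ratio of 6.70 has an exact 95% interval of 2.77 to 19.6 that covers counting error only. RCAN1 was lower in HT-29 too (-1.27, SE 0.08, FDR 2.55e-16). PPP3CA and PPP3R1 were higher there by 0.73 and 0.52, and NFAT5 was lower by a log2 difference of -0.49, all past FDR 0.05 in edgeR but inside the fold limit. NFATC3 and PPP3CB differed by 0.10 each, with FDR values of 0.252 and 0.326.

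**Figure D2:**
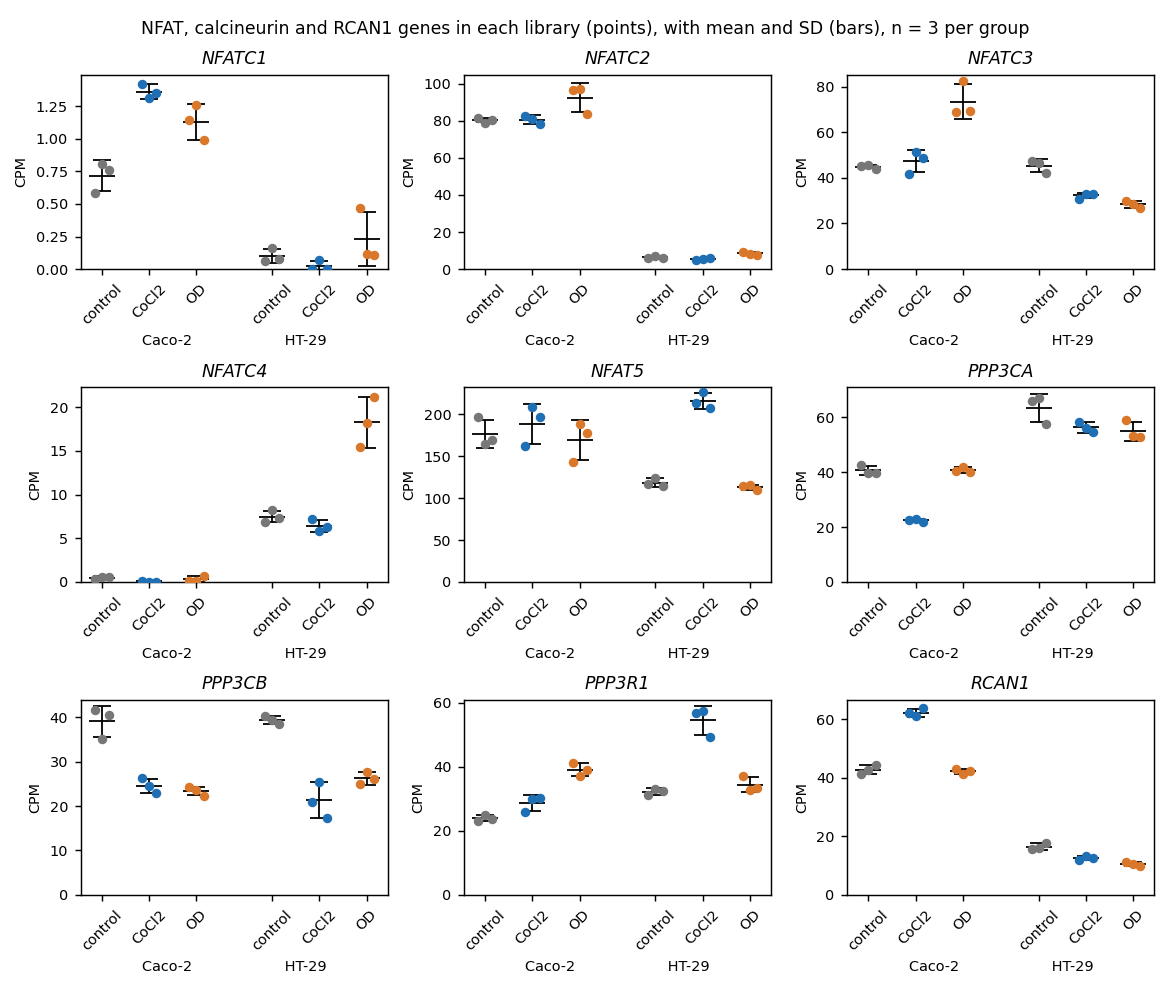
CPM (TMM-scaled within each line) of the 9 genes in each of 18 libraries, by group, with mean and SD as bars (n = 3 libraries). NFATC2 and RCAN1 are higher throughout Caco-2, NFATC4 is higher throughout HT-29, and PPP3CB is lower in every treated group than in its control.

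Seen as shares of the summed NFATC1 to NFATC4 RPKM, which do not depend on how libraries are scaled, NFATC2 made up 64.9% ± 0.612 (SD, n = 3) and NFATC3 34.2% ± 0.573 in Caco-2 controls. In HT-29 controls NFATC3 made up 75.6% ± 1.70, NFATC2 11.2% ± 0.679 and NFATC4 most of the rest. With OD these shares differed from control in both lines. The NFATC3 share reached 39.8% to 44.1% in Caco-2 with OD, against 33.6% to 34.8% in controls. In HT-29 it stood at 47.0% to 53.1% with OD against 74.1% to 77.4% in controls, while NFATC4 stood at 28.6% to 38.7% against 11.7% to 13.7%. None of these ranges overlapped. With CoCl2 the NFATC3 share overlapped that of the control in Caco-2 (31.9% to 37.0%) and lay just below it in HT-29 (71.1% to 73.7%). Shares were described and not tested.

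**Figure D3:**
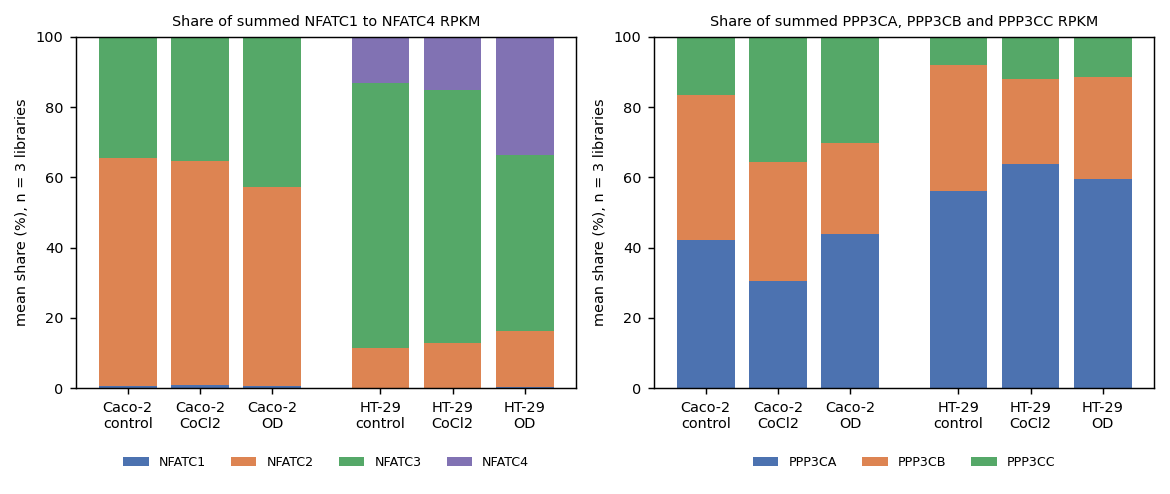
Mean share (%, n = 3 libraries) of each gene in the summed RPKM of NFATC1 to NFATC4 (left) and of the 3 calcineurin A genes (right), by line and treatment. NFATC4 takes 33.5% of the NFAT sum in HT-29 with OD, and PPP3CC takes 35.7% of the calcineurin A sum in Caco-2 with CoCl2 against 16.5% in the control.

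Each agent was then compared with control within each line. In Caco-2, 0 of the 8 genes tested were called with CoCl2, where 23.4% of all genes were called, and 0 with OD, where 11.7% were. At FDR under 0.05 without the fold limit, 5 of the 8 passed with CoCl2, where 64.7% of all genes did. Of these 3 were higher (31.6% of all genes) and 2 lower (33.1%). With OD 4 of the 8 passed (50.4% of all genes), 3 higher (25.7%) and 1 lower (24.7%). In HT-29, 0 of 8 were called with CoCl2 against 41.3% of all genes, and 1 of 8, NFATC4, with OD against 17.1%. There 6 of 8 passed the FDR alone with CoCl2 (82.8% of all genes), 2 higher (40.7%) and 4 lower (42.2%). With OD 6 of 8 passed (68.8%), 2 higher (34.7%) and 4 lower (34.0%). The shares of members that passed in either direction lay near these backgrounds. With library size the members that passed were 1 higher and 4 lower (CoCl2) and 2 higher and 1 lower (OD) in Caco-2, then 1 higher and 6 lower and 2 higher and 5 lower in HT-29. The count for CoCl2 in Caco-2 became 3 without replicate 2 or without replicate 3. The median absolute log2 fold change of the members tested was 0.41 (CoCl2) and 0.44 (OD) within Caco-2 and 0.44 (CoCl2) and 0.50 (OD) within HT-29. Over all genes tested it was 0.52, 0.37, 0.82 and 0.42 in that order. The 2 comparisons of a line share their control libraries.

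**Figure D4:**
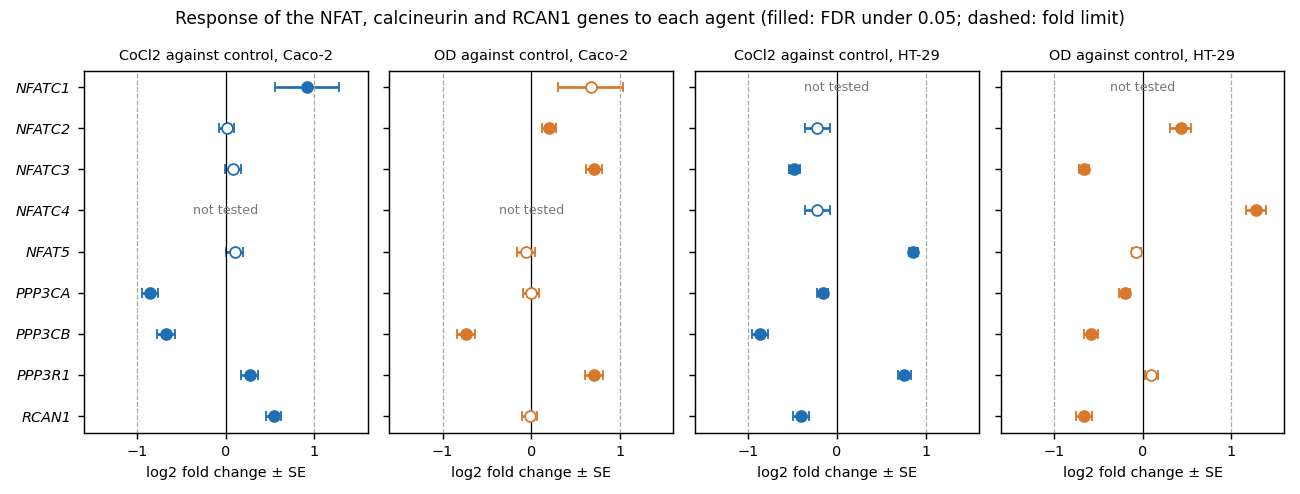
Log2 fold change against control with its SE for the 9 genes, by agent and line, from edgeR (n = 3 libraries a group). Filled points passed FDR 0.05, dashed lines mark the fold limit of the call, and only NFATC4 in HT-29 with OD lies beyond it.

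Among the calcineurin-dependent factors, NFATC4 (chromosome 14, 24365673 to 24379604, plus strand, GRCh38) showed the largest fitted change of the 9 genes against control. In HT-29 its libraries held 6.91, 8.20 and 7.36 CPM in controls, 7.17, 5.88 and 6.26 with CoCl2 and 15.4, 18.2 and 21.2 with OD. The OD libraries lay clear of the other 6, while CoCl2 and control overlapped. The log2 fold change was 1.28 for OD (SE 0.11, FDR 9.40e-11) and -0.22 for CoCl2 (SE 0.14, FDR 0.142), the latter past FDR 0.05 without replicate 1 (-0.35) and with library size (-0.85). CoCl2 against OD differed by -1.51 (SE 0.12, FDR 1.92e-11). On the deposited log2(RPKM + 1) scale the OD change was 0.73 and under the fold limit, as the added 1 shrinks changes at such low levels. In Caco-2, NFATC4 had 6, 8 and 9 counts in controls, 2, 0 and 1 with CoCl2 and 2, 2 and 10 with OD, and was not tested. The control counts exceeded those with CoCl2 by a ratio of 7.29, with an exact 95% counting interval of 2.20 to 37.9. The ratio to OD was 1.61 (0.796 to 3.39).

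NFATC3 (chromosome 16, 68084751 to 68229259, plus strand), the most evenly expressed of the NFAT factors between the lines, moved in opposite directions in them. In Caco-2 its controls held 45.2, 45.5 and 44.0 CPM and the OD libraries 68.7, 82.5 and 69.1, a log2 fold change of 0.71 (SE 0.09, FDR 6.09e-07). In HT-29 the controls held 47.6, 46.4 and 42.1 CPM, and OD gave 29.9, 28.7 and 26.9, a change of -0.66 (SE 0.06, FDR 5.47e-10). Treated and control libraries did not overlap in either line. With CoCl2 it fell in HT-29 to 30.9, 33.0 and 33.1 CPM (-0.48, SE 0.06, FDR 1.52e-07), which became -1.12 with library size and then passed the fold limit. In Caco-2 with CoCl2 it stood at 41.9, 51.4 and 48.6 CPM around the control level (0.08, FDR 0.481), a value that became -0.24 with library size. NFATC3 shares 227 exonic bases with the antisense gene ESRP2, an epithelial splicing factor with a mean of 1591.6 counts over the 18 libraries. NFATC3 also shares 2796 with an unnamed antisense RNA, and 1385 and 285 with unnamed RNAs on its own strand. The ESRP2 fold change with OD was -0.42 in Caco-2 and -0.09 (edgeR FDR 0.0974) in HT-29. Whether strand was used in counting is not given in the sources used here, so reads of the shared bases cannot be told apart.

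NFATC2 (chromosome 20, 51386957 to 51562831, minus strand) moved little. In Caco-2 it held 81.4, 79.0 and 80.5 CPM in controls, 82.6, 81.2 and 78.1 with CoCl2, and 96.6, 97.2 and 83.5 with OD. The change with OD was 0.20 (SE 0.08, FDR 0.0323). It missed the threshold without replicate 2 (0.15), on the deposited log2 values (0.15) and with library size (0.05). With CoCl2 the value was 0.01 (FDR 0.958) and -0.32 with library size. In HT-29, from 6.20, 7.05 and 5.74 CPM in controls, OD gave 9.31, 8.38 and 7.66, a rise of 0.43 (SE 0.12, FDR 0.00281) with no overlap. CoCl2 gave 4.78, 5.26 and 6.26 CPM and a fold change of -0.22 (FDR 0.151). This change passed FDR 0.05 without replicate 3 (-0.40), in a single fit of 18 libraries (-0.33) and with library size (-0.85).

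NFATC1 (chromosome 18, 79395856 to 79529325, plus strand), which the study set beside ITGA5 and PLAUR, was close to the limit of detection. Its Caco-2 libraries held 10, 12 and 11 counts in controls, 17, 18 and 25 with CoCl2 and 17, 21 and 14 with OD. In CPM this was 0.582, 0.805 and 0.762 in controls, 1.42, 1.31 and 1.35 with CoCl2 and 1.14, 1.26 and 0.988 with OD. Both treated groups lay above the control libraries. The log2 fold change was 0.92 with CoCl2 (SE 0.36, FDR 0.0275) and 0.67 with OD (SE 0.37, FDR 0.131). The former was inside the fold limit, and it missed FDR 0.05 under 6 of its 9 alternatives, over which the FDR ran from 0.0252 to 0.147. These were each replicate left out in turn (0.76, 1.04 and 0.98), library size (0.60), no filter (0.92) and the DESeq2 test (0.94). In HT-29 it had 1, 3 and 2 counts in controls, 0, 1 and 0 with CoCl2 and 9, 2 and 2 with OD, and was not tested.

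NFAT5 (chromosome 16, 69565094 to 69704666, plus strand), the osmotic stress factor, had the most counts of the 9 genes and rose with CoCl2 in HT-29. Its libraries there held 117, 124 and 114 CPM in controls, 213, 226 and 207 with CoCl2 and 114, 115 and 109 with OD. The CoCl2 libraries lay clear of the other 6. The log2 fold change was 0.86 (SE 0.05, FDR 7.73e-15), or 0.23 with library size, and -0.07 with OD (FDR 0.243), or -0.20 with library size. In Caco-2 the values scattered more, with 196, 164 and 169 CPM in controls, 162, 208 and 196 with CoCl2 and 143, 188 and 177 with OD, and the 3 groups overlapped. CoCl2 gave a value of 0.10 (SE 0.10, FDR 0.381) and OD one of -0.06 (SE 0.10, FDR 0.652). Both depended on single libraries. Without replicate 1 they were 0.28, which passed FDR 0.05, and 0.13, which did not, and without replicate 2 the CoCl2 value was -0.02. The CoCl2 value in Caco-2 became -0.22 with library size. NFAT5 shares 1588 exonic bases with an unnamed RNA on its own strand.

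Of the calcineurin subunits, PPP3CB (chromosome 10, 73436433 to 73496024, minus strand), which encodes the beta form of the catalytic subunit, fell with both agents in both lines. In Caco-2 it held 41.6, 35.1 and 40.5 CPM in controls, 26.2, 24.4 and 23.0 with CoCl2 and 24.2, 23.6 and 22.3 with OD. In HT-29 it held 40.2, 39.4 and 38.4 in controls, 20.9, 25.5 and 17.4 with CoCl2 and 24.9, 27.7 and 26.1 with OD. No treated library reached the lowest control library of its line. In Caco-2 the log2 fold change was -0.67 with CoCl2 (SE 0.10, FDR 2.10e-06) and -0.74 with OD (SE 0.10, FDR 1.09e-06). In HT-29 it was -0.87 with CoCl2 (SE 0.09, FDR 4.92e-10) and -0.58 with OD (SE 0.08, FDR 3.63e-07). With library size the 4 values lay between -1.51 and -0.72. PPP3CB shares 13 exonic bases with the antisense RNA PPP3CB-AS1, whose fold changes were -1.90 (CoCl2) and -0.04 (OD) within Caco-2 and -0.34 (CoCl2) and -0.65 (OD) within HT-29.

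PPP3CA (chromosome 4, 101023409 to 101348278, minus strand), the alpha form of the catalytic subunit, parted the 2 agents in Caco-2. Its controls held 42.6, 39.8 and 39.6 CPM and the OD libraries 40.3, 41.9 and 40.1, whereas CoCl2 gave 22.7, 22.8 and 22.0. The control and OD libraries overlapped and the CoCl2 libraries lay far below. The log2 fold change was -0.85 with CoCl2 (SE 0.09, FDR 1.02e-08), to 0.553 of control, or -1.18 and past the fold limit with library size, and 0.00 with OD (SE 0.09, FDR 0.967). CoCl2 against OD differed by -0.86 (SE 0.09, FDR 2.45e-08). In HT-29, from 65.8, 67.0 and 57.5 CPM in controls, CoCl2 gave 58.5, 56.1 and 54.5 and OD 58.9, 53.2 and 52.8, and both overlapped the controls. The changes of -0.16 (FDR 0.0174) and -0.20 (FDR 0.00491) were lost without replicate 2, at -0.12 and -0.13, and were -0.80 and -0.34 with library size.

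PPP3CC, the third catalytic gene and not among the 9, rose in Caco-2 from 8.87 ± 0.659 CPM (SD, n = 3) to 14.7 ± 0.585 with CoCl2 (0.73, SE 0.12, edgeR FDR 1.69e-05) and 15.6 ± 0.819 with OD (0.82, SE 0.12, FDR 5.97e-06). In HT-29 it stood at 5.01 ± 0.837, 5.86 ± 0.604 and 5.92 ± 0.340 CPM (0.22 and 0.23, edgeR FDR 0.160 and 0.128), and the CoCl2 value there became -0.42 with library size. The line differences of -0.62 (CoCl2) and -0.61 (OD) passed (edgeR FDR 0.00548 and 0.00598). As shares of the summed calcineurin A RPKM in Caco-2, PPP3CC made up 15.4% to 17.6% in controls, 33.8% to 37.6% with CoCl2 and 29.7% to 30.9% with OD. PPP3CB stood at 39.6% to 42.3%, 32.3% to 35.9% and 25.3% to 26.6% in the same groups, so that CoCl2 left 3 nearly equal parts and OD a sum led by PPP3CA at 43.3% to 44.8%. In HT-29 PPP3CA kept the largest part in each group, between 54.2% and 65.7%.

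The regulatory subunit gene PPP3R1 (chromosome 2, 68178857 to 68256237, minus strand) rose with OD in Caco-2 and with CoCl2 in HT-29. In Caco-2 it held 23.1, 24.8 and 23.8 CPM in controls, 25.9, 29.9 and 30.2 with CoCl2 and 41.0, 37.2 and 39.1 with OD, and the 3 groups did not overlap. The OD change was 0.71 (SE 0.10, FDR 1.20e-06). The CoCl2 change was 0.27 (SE 0.10, FDR 0.0182), was lost without replicate 2 (0.27) or replicate 3 (0.23), and turned to -0.05 with library size. In HT-29 the order of the agents was the other way round, with 31.0, 33.1 and 32.4 CPM in controls, 56.8, 57.2 and 49.2 with CoCl2 and 37.1, 32.8 and 33.3 with OD. The CoCl2 change was 0.76 (SE 0.07, FDR 3.82e-11), or 0.13 and no longer past FDR 0.05 with library size. The OD change was 0.10 (SE 0.07, FDR 0.206), or -0.04 with library size. CoCl2 against OD differed by -0.44 in Caco-2 (SE 0.09, FDR 0.000403) and by 0.66 in HT-29 (SE 0.07, FDR 7.49e-10). PPP3R1 and RCAN1 each share exonic bases (462 and 921) with an unnamed protein-coding gene on their own strand in GENCODE v44.

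RCAN1 (chromosome 21, 34513142 to 34615113, minus strand), the calcineurin inhibitor, rose with CoCl2 in Caco-2 and fell with both agents in HT-29. In Caco-2 it held 41.3, 42.5 and 44.4 CPM in controls, 62.0, 61.0 and 63.8 with CoCl2 and 43.0, 41.4 and 42.3 with OD. The CoCl2 libraries lay clear of the rest, with a log2 fold change of 0.54 (SE 0.08, FDR 2.08e-06), or 0.22 with library size. With OD it was -0.02 (SE 0.08, FDR 0.873), and CoCl2 against OD differed by 0.56 (SE 0.08, FDR 2.80e-06). In HT-29 it held 15.6, 16.1 and 17.8 CPM in controls, 11.9, 13.4 and 12.5 with CoCl2 and 11.3, 10.4 and 9.74 with OD. No group overlapped another there. The changes were -0.40 (SE 0.09, FDR 0.000349) and -0.66 (SE 0.09, FDR 3.56e-07), or -1.03 and -0.80 with library size. The counts join all RCAN1 starts, the 3 at the head of the gene and the 3 inside it, of which the one with 5 NFAT core matches is printed above, so which of them moved was not seen.

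Differences between the lines in these responses were then tested as an interaction over all 18 libraries, as the HT-29 change less the Caco-2 change. For CoCl2, 2 of the 9 genes were called against 21.6% of 17921 genes, and for OD 2 of 9 against 15.2%. NFATC4 was among those called for each agent, although it failed the count filter within Caco-2 and entered this fit through HT-29. The FDR alone was passed by 6 of 9 with CoCl2 (49.8% of all genes) and by 4 of 9 with OD (42.9%). RCAN1 differed by -1.05 with CoCl2 (SE 0.12, FDR 3.29e-09) and by -0.66 with OD (SE 0.12, FDR 1.82e-05). NFATC3 differed by -1.39 with OD (SE 0.11, FDR 4.19e-12) and by -0.67 with CoCl2 (SE 0.12, FDR 1.02e-05). PPP3R1 had opposite differences, 0.38 with CoCl2 (SE 0.12, FDR 0.00676) and -0.63 with OD (SE 0.11, FDR 2.68e-05), the former missing the threshold without replicate 1 (0.26), without replicate 2 (0.36) and with library size (0.18). For CoCl2, NFAT5 differed by 0.66 (SE 0.12, FDR 1.95e-05) and PPP3CA by 0.58 (SE 0.10, FDR 1.79e-05). For OD their differences were -0.03 (FDR 0.903) and -0.22 (FDR 0.0727). PPP3CB gave -0.31 with CoCl2 (SE 0.14, FDR 0.0591) and, with OD, 0.14 (SE 0.13, FDR 0.416), so a line difference in its fall was not detected in this fit. The CoCl2 value did pass FDR 0.05 with a replicate block (-0.32) and with library size (-0.51). For NFATC2 the values were -0.33 (FDR 0.0682) and 0.21 (FDR 0.229), the former past FDR 0.05 without replicate 3 (-0.54) and with library size (-0.53). NFATC1 gave -2.73 with CoCl2 (SE 1.24, FDR 0.0662) and 0.49 with OD (SE 0.75, FDR 0.647). Its CoCl2 value passed FDR 0.05 with library size (-2.84). Both NFATC1 values rest on HT-29 libraries with 0 to 9 counts. The NFATC4 differences of 2.40 (SE 0.81, FDR 0.0131) and 1.94 (SE 0.57, FDR 0.00574) rest on Caco-2 libraries with 0 to 10 counts and are not bounds.

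**Figure D5:**
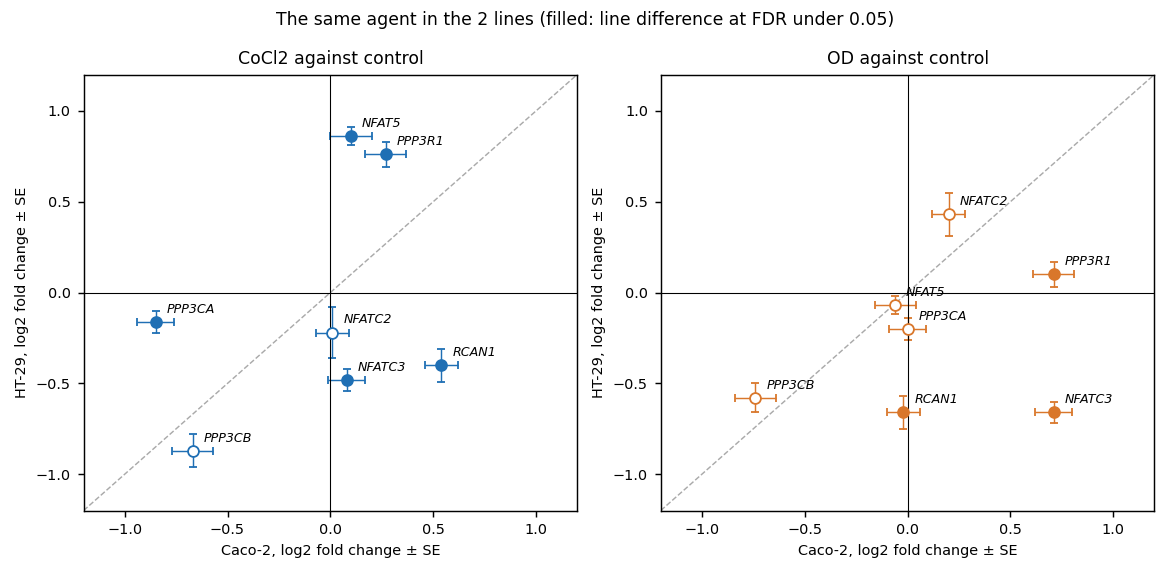
Log2 fold change with SE in Caco-2 (x) and HT-29 (y) for CoCl2 (left) and OD (right), for the 7 genes tested in both lines. Filled points passed FDR 0.05 for the line difference, and the dashed line marks equal change. PPP3CB lies near it for both agents, while RCAN1 (CoCl2) and NFATC3 (OD) have opposite signs.

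Other genes around calcineurin were taken as lists, whose counts are to be read against the shares of all genes that passed the FDR alone. With CoCl2 and OD in Caco-2 these were 31.6% and 25.7% higher and 33.1% and 24.7% lower. In HT-29 they were 40.7% and 34.7% higher and 42.2% and 34.0% lower. Of 10 further calcineurin partners 7 were tested. With CoCl2 in Caco-2, 5 rose and 2 fell, and with OD 5 rose and 0 fell. In HT-29, 4 rose and 2 fell with CoCl2, and 3 rose and 2 fell with OD. With library size these splits were 3 and 2, 2 and 0, 2 and 4, and 1 and 3, so that in HT-29 the larger side turned. The 5 that passed with OD in Caco-2 became 3 without replicate 2 or replicate 3. The list's median log2 fold changes were 0.40, 0.30, 0.24 and 0.18, beside -0.03, -0.02, -0.03 and 0.01 over all genes tested. CHP1, a calcineurin B homologue that can inhibit the enzyme, rose with CoCl2 in Caco-2 (0.77) and with both agents in HT-29 (1.40 and 0.92). CABIN1, which encodes a calcineurin-binding inhibitor, rose with CoCl2 in both lines (0.82 and 0.88). AKAP5, which anchors calcineurin near membranes, fell with CoCl2 in both lines (-0.97 and -1.53) and with OD in HT-29 (-0.70), but rose with OD in Caco-2 (0.51). The directions of these named changes were kept with library size, with CHP1 at 0.45, 0.76 and 0.78, CABIN1 at 0.50 and 0.24 and AKAP5 at -1.29, -2.15, -0.83 and 0.35.

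Upstream, calcium stores and store-operated channels feed calcineurin. Of 15 such genes, 14 were tested in Caco-2. With CoCl2 3 rose and 8 fell (31.6% and 33.1% of all genes), and with OD 4 rose and 4 fell (25.7% and 24.7%). In HT-29, 15 were tested, with 4 up and 9 down for CoCl2 (40.7% and 42.2% of all genes) and 8 up and 4 down for OD (34.7% and 34.0%). With library size the splits were 0 and 11, 2 and 4, 2 and 12, and 6 and 4. Without replicate 2 the Caco-2 totals of 11 (CoCl2) and 8 (OD) became 7 and 5. ITPR2, a receptor that releases calcium from the endoplasmic reticulum, fell in all 4 comparisons, from 90.8 ± 4.45 CPM (SD, n = 3) to 25.4 ± 4.36 and 53.1 ± 9.51 in Caco-2 and from 105 ± 3.20 to 46.3 ± 2.51 and 46.1 ± 1.22 in HT-29. The changes were -1.83, -0.77, -1.19 and -1.19, all past FDR 0.05 in edgeR. ITPR1, of the same family, rose with CoCl2 in HT-29 alone among the 4 comparisons (1.26, SE 0.12, FDR 3.31e-10), and the line difference of 1.53 passed too (FDR 3.43e-06). ORAI2, a store-operated channel subunit, fell with CoCl2 in HT-29 (-1.22) and Caco-2 (-0.38) and rose with OD in HT-29 (0.33). TRPV6, an epithelial calcium channel, had 57 to 179 counts in HT-29 controls, 5 with CoCl2 in each library and 79 to 107 with OD. It was not tested in Caco-2, where it had 1 to 9 counts.

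A further list held the kinases that return NFAT to the cytoplasm and scaffold proteins. Of 14 genes 13 were tested. In HT-29 10 rose and 2 fell with CoCl2 (40.7% and 42.2% of all genes), and 11 rose and 0 fell with OD (34.7% and 34.0%). With library size the CoCl2 split was 5 up and 6 down, and the OD split 9 and 0. In Caco-2, 6 rose and 3 fell with CoCl2 and 6 rose and 1 fell with OD, turning to 4 and 7 and to 0 and 2 with library size. The Caco-2 total for OD became 2 without replicate 2 and 4 without replicate 3. DYRK1A, which primes NFAT for export, rose with CoCl2 in HT-29 (1.14) and Caco-2 (0.42), and the difference of 0.61 passed (SE 0.10, edgeR FDR 3.76e-06). GSK3B (1.07) and MAPK8 (1.05), 2 other NFAT kinases, rose in the same HT-29 comparison. With library size the HT-29 values were 0.51, 0.44 and 0.42, and DYRK1A in Caco-2 was at 0.10. HOMER3, a scaffold that competes with calcineurin for NFAT, went in opposite directions in HT-29, with a fall of -1.10 with CoCl2 and a rise of 1.28 with OD.

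Downstream, 14 genes were listed. Of these, 12 are ascribed to NFATC factors in general knowledge, most of them immune genes, and ITGA5 and PLAUR were added because the study raised NFATC1 as a possible regulator. Of the 14, 4 passed the count filter in Caco-2 and 6 did so in HT-29. All 4 tested in Caco-2 rose with each agent. ITGA5 and PLAUR among them were picked by the study in part from differentiated Caco-2, so their direction here is no independent evidence. The study also drew on undifferentiated Caco-2 and on epithelium of patients. In HT-29, 4 rose and 2 fell with each agent, and library size left these counts as they were. A gene that is nearly off in a line passes the count filter more readily when an agent switches it on, so these counts do not stand for the list. PLAUR rose in HT-29 from 41.5 ± 6.10 CPM (SD, n = 3) to 104 ± 3.51 with CoCl2 and 121 ± 7.70 with OD. ITGA5 had 0 to 4 counts in HT-29 libraries and was not tested there. NR4A1, an immediate early nuclear receptor, rose in all 4 comparisons, from 6.99 ± 0.380 CPM (SD, n = 3) to 27.4 ± 5.03 and 26.9 ± 1.45 in Caco-2 and from 8.63 ± 0.497 to 17.8 ± 2.02 and 22.4 ± 2.20 in HT-29. PTGS2, the inducible cyclooxygenase, went apart between the lines, as RCAN1 did with CoCl2. In Caco-2 its level of 1.37 ± 0.183 CPM rose to 2.87 ± 0.563 with CoCl2 (1.09, FDR 0.00210 in edgeR) and 2.51 ± 0.841 with OD (0.90, FDR 0.0133). In HT-29 it fell from 40.7 ± 2.37 CPM to 8.24 ± 0.248 (-2.31, FDR 1.17e-18 in edgeR) and 15.2 ± 1.74 (-1.42, FDR 4.92e-15). The line differences were -3.51 and -2.34 (edgeR FDR 4.08e-13 and 5.59e-09).

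The targets ascribed to NFAT5 were listed apart. Of 10, 9 were tested in each line. In HT-29, 6 rose and 3 fell with CoCl2 (40.7% and 42.2% of all genes), and 5 rose and 3 fell with OD (34.7% and 34.0%). In Caco-2, 4 rose and 2 fell with CoCl2 and 2 rose and 1 fell with OD. With library size these splits were 4 and 5, 4 and 4, 2 and 3, and 1 and 4. For OD in Caco-2, 5 passed without replicate 1 and 1 without replicate 2. SLC6A6, the taurine carrier, rose in HT-29 from 50.4 ± 4.21 CPM (SD, n = 3) to 354 ± 11.6 with CoCl2 (2.82, SE 0.06, edgeR FDR 1.61e-24) and 159 ± 8.03 with OD (1.67, SE 0.06, FDR 6.86e-19). In Caco-2 it rose by 0.44 with CoCl2, a value of 0.12 with library size, and stood at -0.17 with OD (edgeR FDR 0.0658). AKR1B1, which makes sorbitol, had 1 to 3 counts in HT-29 controls, 53 to 56 with CoCl2 and, with OD, 27 to 36. Both differences from control were called, but with so few control counts the gene passed the count filter only through the treated groups. It stood at 17.6 ± 1.92, 20.6 ± 1.53 and 17.8 ± 2.55 CPM in the Caco-2 groups (edgeR FDR 0.0989 and 0.902). HSPA1B, a heat shock gene with many other inducers, rose with CoCl2 in Caco-2 (2.40) and HT-29 (3.08). AQP2, a water channel best known from kidney, had 35 to 44 counts in HT-29 controls, 0 to 1 with CoCl2 and 3 to 9 with OD. It passed the filter through the controls. AKR1B1 and AQP2 thus entered the HT-29 splits through the groups where they were high, and their directions there do not stand for the list.

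The agents were also compared directly, at the single dose of each that was used. In Caco-2, 0 of 8 genes were called (11.7% of all genes) and 5 passed the FDR alone (49.6%). In HT-29, 1 of 8, NFATC4, was called (29.9%) and 7 passed the FDR alone (77.7%). The value for NFATC2 in Caco-2 was -0.20 (SE 0.08, FDR 0.0376), and it was lost without replicate 2 (-0.16), without replicate 3 (-0.24) and with a replicate block (-0.19). Others not given above were -0.63 for NFATC3 in Caco-2 (SE 0.09, FDR 3.24e-06), 0.93 for NFAT5 in HT-29 (SE 0.05, FDR 3.02e-15) and -0.65 for NFATC2 in HT-29 (SE 0.13, FDR 0.000106), each as CoCl2 against OD. PPP3CB differed by 0.07 in Caco-2 (FDR 0.611) and -0.29 in HT-29 (FDR 0.00497), the former turning to -0.10 with library size and the latter missing the threshold without replicate 3 (-0.17). The HT-29 values of NFATC3 (0.18) and RCAN1 (0.26) passed but were lost under 5 alternatives each and turned negative with library size, and without replicate 3 the 7 became 4.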

How the data were processed

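Messenger RNA was sequenced in 18 libraries of Caco-2 and HT-29, and the miRNA libraries were not used here. Per the labels and the study's methods, which describe the Caco-2 part, libraries came from a stranded mRNA kit with single-end reads of 75 bases. The submitters' processing notes list FastQC 0.11.9, cutadapt 2.10 and STAR 2.7.5b with GRCh38.p13, and the methods name GENCODE v34. The counting tool and its use of strand are not given in the sources used here. Read counts for each gene, deposited unscaled by the authors, gave the main results, and a second table of log2 values. These deposited log2 values are log2(RPKM + 1), scaled within each line. A gene that failed the authors' filter in 1 line, as NFATC4 did in Caco-2, stands at 0 there. NFATC1 has no deposited log2 value in either line.

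The members and all gene lists were chosen with earlier results of these data known. Counts were tested in edgeR 4.0.16 (R 4.3.3) by the two-sided quasi-likelihood F test with TMM scaling and filterByExpr, 9 libraries of a line per fit, and 18 for differences between lines. The FDR is the Benjamini-Hochberg adjusted p over all genes tested, and a call uses the limits that the study set for its own DESeq2 fits. CPM were TMM-scaled within a line, and RPKM over 18 libraries with GENCODE v44 exon lengths (37524 symbols matched a single gene). SE is the absolute log2 fold change divided by the square root of F. The procedure was tested on simulated data. From each list at most 4 genes were named, those called in most comparisons and then with the largest change, plus ITGA5 and PLAUR. A rule for naming genes of like pattern covered only members called against control and tested in both lines. No member met both conditions, so no likeness was computed. Replicates differed by more than counting error in every group. Alternatives were DESeq2 1.42.0 as size factors and as test, library size, no filter, each replicate left out, a replicate block, limma-trend (limma 3.58.1) on the deposited values, a single fit of 18 libraries and no fold limit.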

Additional observations from a re-analysis of the deposited data

Results flagged for a closer look

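The response to an agent differed between the lines, by a test of the difference itself (edgeR interaction, HT-29 change less Caco-2 change, 3 libraries a group), for 10 pairs of a gene and an agent. For CoCl2 the differences were -0.67 for NFATC3, 2.40 for NFATC4, 0.66 for NFAT5, 0.58 for PPP3CA, 0.38 for PPP3R1 and -1.05 for RCAN1. For OD they were -1.39 for NFATC3, 1.94 for NFATC4, -0.63 for PPP3R1 and -0.66 for RCAN1. At FDR under 0.05, 49.8% of all genes tested differed between the lines for CoCl2 and 42.9% for OD. NFATC4 failed the count filter within Caco-2 and entered the fit through HT-29, so its differences are not bounds. The NFATC4 differences also depended on single libraries. That for CoCl2 missed FDR 0.05 without replicate 2 (1.98) or replicate 3 (2.05), and that for OD without replicate 2 (1.53). PPP3R1 with CoCl2 missed it without replicate 1 (0.26) or replicate 2 (0.36). The line cannot be told apart from the differentiated state of the Caco-2 cells.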

How the results depend on the processing

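Under library size alone, these values of single genes turned: for CoCl2 against control in Caco-2, NFATC2 -0.32, NFATC3 -0.24, NFAT5 -0.22 and PPP3R1 -0.05, for OD in HT-29, PPP3R1 -0.04, for CoCl2 against OD, NFAT5 -0.01 and PPP3CB -0.10 in Caco-2, then NFATC3 -0.32, PPP3CA -0.46 and RCAN1 -0.23 in HT-29, and for the line difference with OD, NFAT5 0.01. The scaling itself moved the median of all genes in these comparisons. Without the filter on low counts RCAN1 with OD in Caco-2 was 0.01 and PPP3CA, CoCl2 against OD in HT-29, -0.02. The latter was -0.06 in a single fit of 18 libraries and -0.03 on the deposited log2 values, where NFATC2 with CoCl2 in Caco-2 was -0.03. Leaving out replicates turned NFATC2 with CoCl2 in Caco-2 (-0.01 without replicate 2, to 0.03 without replicate 3), NFAT5 with CoCl2 (-0.02 without replicate 2, to 0.28 without replicate 1) and OD (0.13 without replicate 1) in Caco-2, RCAN1 with OD in Caco-2 (0.01 without replicate 3), the NFATC1 line difference with OD (-0.57 without replicate 1, to 1.22 without replicate 2) and that of NFAT5 (-0.25 without replicate 1, 0.13 without replicate 2, 0.04 without replicate 3). The cause was not tested.

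Counts of genes called moved as follows. For CoCl2 in Caco-2, 0 became 1 with library size, with no filter and in the single fit. For CoCl2 against OD in Caco-2, 0 became 1 with library size and in the single fit. For CoCl2 in HT-29, 0 became 3 with library size. For OD in HT-29, 1 became 0 on the deposited log2 values. For CoCl2 against OD in HT-29, 1 became 0 on the deposited values and 2 with library size, no filter or the single fit. For the line difference with CoCl2, 2 became 1 with DESeq2 size factors and with the DESeq2 test. Without the fold limit the counts were 5, 4 and 5 for Caco-2, then 6, 6 and 7 for HT-29, 6 and 4 for the line differences, and 7 between controls. Leaving out each replicate, calls ranged from 0 to 1 for CoCl2 in HT-29, 0 to 2 for the CoCl2 line difference and 1 to 2 for that of OD, and were the same number in the other comparisons. Genes passing FDR 0.05 ranged from 3 to 5, 3 to 4 and 4 to 6 for Caco-2 (CoCl2, OD, CoCl2 against OD), 5 to 7, 5 to 6 and 4 to 7 in HT-29, 4 to 6 and 3 to 6 for the line differences, and 7 to 7 between controls.

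Replicate numbers did not pair the samples: deviations of libraries with the same number correlated between -0.0554 and 0.0676 within Caco-2 and between -0.0369 and 0.0245 within HT-29. A replicate block moved calls over all genes from 3747 to 3737 and 1876 to 1891 in Caco-2, and in HT-29 from 6524 to 6520 and 2699 to 2700 (CoCl2 and OD). Among the 9 genes the block changed the side of the threshold for NFATC2, CoCl2 against OD in Caco-2 (-0.19, edgeR FDR 0.0536), and for the CoCl2 line difference of PPP3CB (-0.32, FDR 0.0435). Depth limits NFATC1 in both lines and NFATC4 in Caco-2, where no library held over 25 counts.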
